A study of Mus musculus with 18 samples.

Results

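The cytosolic ribosomal protein genes are the genes whose symbol begins with Rpl or Rps and a number, together with Rpsa and Rplp0 to Rplp2, and without the kinases, binding proteins and pseudogenes whose symbols start alike. On the Affymetrix mouse arrays used here, 49 of the 18194 genes named by a probe set of their own met that rule, 26 of the large subunit and 23 of the small one. Those 49 genes had 105 probe sets, and each gene was read from the probe set with the highest mean over the 18 arrays. Another 109 probe sets list a ribosomal protein symbol beside other genes, mostly pseudogene copies, and were not used, so that many ribosomal proteins (Rplp1 among them) have no value of their own. The rule reads only the symbol and the mean over all arrays, but it was chosen with earlier results of these data known.

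The study gave MPTP to mice, a compound that is turned into a toxin of dopamine neurons in the brain and is used to model Parkinson's disease. All animals were C57BL/6J males 14 weeks old. MPTP mice received 30 mg/kg (as free base) into the peritoneum once a day for 5 days, saline mice received the vehicle on the same schedule, and the brains were collected 4 days after dosing ended. Each of frontal cortex, striatum and midbrain came from 3 MPTP and 3 saline animals, which makes 6 groups of 3 arrays, and the injection reached the whole animal, so that no region was an untreated control for another. RNA came from whole dissected regions, in which fewer cells of a type and less RNA per cell cannot be told apart.

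A ribosome has a large subunit, which joins amino acids, and a small subunit, which reads the messenger RNA, and each is built from ribosomal RNA and one copy of most of its proteins, with the acidic stalk proteins as the main exception. Ribosomal protein messages usually start with a run of pyrimidines, the 5′ terminal oligopyrimidine tract, through which the kinase complex mTORC1 controls their translation; the arrays measure the amount of message and not its translation. A few family members have paralogues with lower or tissue-specific expression, such as Rps4l beside Rps4x, Rps27l beside Rps27, Rpl22l1 beside Rpl22 and Rpl7l1 beside Rpl7.

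The starts of 5 genes that the results below turn on, and of 2 with long tracts, are shown first. Family members differ in whether and where a pyrimidine tract lies near the start. Such a tract was sought on both sides of the annotated start, so it need not be the 5′ terminal tract of the message. The marked tract of Rps27l lies wholly before the start. Each line is 60 bases from RefSeq on GRCm38.p6, 40 before and 20 from the transcript start on, 5′ to 3′ on the coding strand, with the longest pyrimidine tract of at least 8 bases in capitals (the first of equals). Rps4x has no such tract within 30 bases of its start, and that of Rpl10a begins 17 bases after it, so that only 3 of its 10 bases are printed. Rps27l has a further run of 9 pyrimidines, left in lower case, 1 base after the marked one.
Rpl22l1, chr3:28805468-28805527, + strand: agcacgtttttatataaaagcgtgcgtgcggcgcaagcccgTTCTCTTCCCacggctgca
Rpl10a, chr17:28328525-28328584, + strand: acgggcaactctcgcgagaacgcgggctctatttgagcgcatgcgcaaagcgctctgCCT
Rps4x, chrX:102189372-102189431, − strand: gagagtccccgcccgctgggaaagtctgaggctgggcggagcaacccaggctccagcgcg
Rps6, chr4:86857348-86857407, − strand: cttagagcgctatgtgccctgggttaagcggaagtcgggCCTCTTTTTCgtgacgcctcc
Rps27l, chr9:66946046-66946105, + strand: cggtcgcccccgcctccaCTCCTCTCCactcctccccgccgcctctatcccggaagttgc
Rpl7a, chr2:26910767-26910826, + strand: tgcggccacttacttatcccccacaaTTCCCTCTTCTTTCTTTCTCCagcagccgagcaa
Rpl35, chr2:39005112-39005171, − strand: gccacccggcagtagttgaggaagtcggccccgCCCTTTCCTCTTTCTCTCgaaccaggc

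RefSeq's promoter table held 51 promoters of 43 of the 49 genes, each 300 bases long. Such a tract, searched on the coding strand within 30 bases of the start, was found in 25 of them, 49.0%, against 22.9% of all 32851 promoters in the table. The letters CCGGAAG, a core that Ets factors bind, stood on either strand of 21, or 41.2%, against 8.86% of all promoters. AAGATGG, a core of the factor YY1, was in 15.7% against 6.34%, and the TATA box letters TATAAA were in 11.8% against 13.6%. Matches of different motifs may overlap, and a match is a description of the sequence, not of binding.

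The values are log2 intensities normalised across arrays (RMA), so a difference of 1 is a doubling. Most family members were among the brightest features of the arrays. Of the 49 genes, 46 reached the median of all probe sets (5.18) in the mean of at least 1 region and were tested, 24 of the large subunit and 22 of the small one. The other 3 stayed below it: the germ-cell and muscle paralogues Rpl39l and Rpl3l, and Rps16, whose only probe set of its own read 3.03 to 3.29 on every array although the protein is part of every ribosome. Of the 46, 27 had means at or above 11.47, the 99th percentile of all values, and 11 had means below 9. Among these 11, Rpl14 passed the filter through midbrain alone, where its group means were 5.23 with saline and 5.42 with MPTP. For Rpl14 the filter itself favoured a higher midbrain value. Levels of different genes are not compared here, since probes differ in brightness.

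Pearson's r between replicates was 0.991 to 0.997 with every probe set included, and the interquartile range of an array was 3.37 to 3.65. With 3 arrays in each group, their number limits the precision. Over all 11741 tested genes, limma's moderated test with Benjamini-Hochberg adjustment called (adjusted p under 0.05) 1.29% higher and 0.809% lower with MPTP in striatum, 2.15% higher and 0.383% lower in midbrain, 0.0511% higher and 0.0170% lower in frontal cortex, and 6.61% higher and 2.43% lower in the mean over regions. A second quantile normalisation of the deposited values moved that split of all genes to 359 higher and 386 lower in striatum (152 and 95 as deposited), 401 and 325 in midbrain (253 and 45), and 912 and 1067 in the mean over regions (776 and 285). Centring each array on its median left 2 higher and 0 lower genes in frontal cortex (6 and 2 as deposited).

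**Figure D1:**
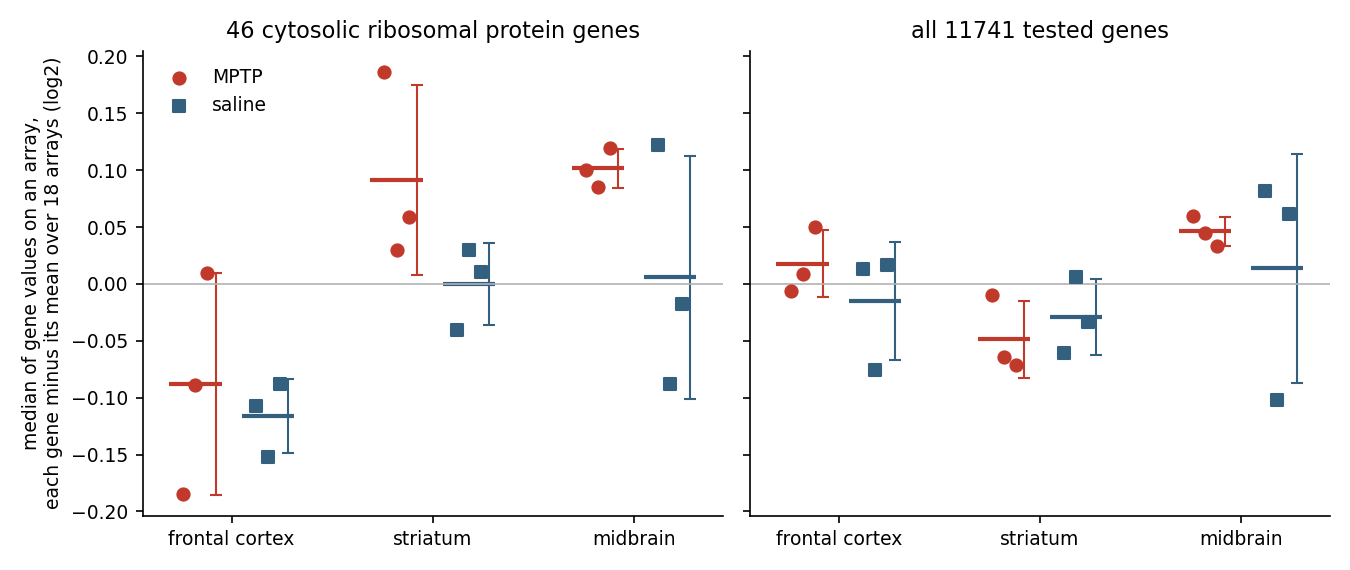
Median of the 46 tested ribosomal protein genes on each array (log2, each gene centred on its mean over all arrays), in the left panel, and of all 11741 tested genes in the right panel, by region with the MPTP arrays left of the saline arrays; lines are group means and bars their SD (n = 3). The 3 MPTP striatum arrays lie at 0.03 to 0.19 and the saline ones at −0.04 to 0.03, so that the groups meet at 0.03. In midbrain the groups overlap, with the MPTP arrays at 0.09 to 0.12 and the saline arrays at −0.09 to 0.12.

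In striatum, where the axons of dopamine neurons end, no ribosomal protein gene passed the test between MPTP and saline animals, but small positive differences prevailed. Of the 46 members, 41 had a positive MPTP minus saline difference and 5 a negative one. Of all 11741 tested genes, 4799 had a positive difference and 6942 a negative one. The median difference of the members was 0.07 on the log2 scale, against −0.03 over all tested genes. Beside 1.29% of all genes called higher and 0.809% called lower, 0 of 46 members were called by limma. An unadjusted p under 0.05 was found for 6 of the 46 members and for 1912 of all 11741 tested genes. The median was 0.08 for the large subunit and 0.06 for the small one. Every MPTP array lay above every saline array for 12 of the 46 members, while 8.46% of all tested genes were so placed. The size of this shift depends on the scaling of the arrays: after a second quantile normalisation the median was 0.01, with 25 positive and 21 negative members. Without replicate 1 of MPTP striatum, the array with the highest family median, the median difference was 0.02.

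The 4 members with the smallest p in striatum were Rplp0, Rpl7, Rpl10a and Rpl22l1. Rplp0, which anchors the stalk of the large subunit that recruits elongation factors and is often used as a reference gene in quantitative PCR, read 11.43, 11.23 and 11.33 in MPTP striatum, against 11.07, 11.16 and 11.10 in saline striatum. The groups did not overlap, and the difference was 0.22 ± 0.066 (SE; adjusted p = 0.0806). Rpl7, a large subunit protein, read 11.76, 11.69 and 11.77 in MPTP striatum, against 11.47, 11.57 and 11.55 in saline striatum. Here too every MPTP array was the higher, by 0.21 on average (adjusted p = 0.0859). For Rpl10a, which sits at the mobile stalk near the exit of the ribosome's transfer RNA, the values were 11.87, 11.74 and 11.73 in MPTP striatum and 11.54, 11.60 and 11.58 in saline striatum. Rpl22l1 had 11.35, 11.17 and 11.12 in MPTP striatum and 10.90, 11.01 and 10.98 in saline striatum. Both genes had groups that did not overlap and differences of 0.21 and 0.25 (adjusted p = 0.157 and 0.177).

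Cell type markers moved in striatum as well. Means over the marker lists were higher in MPTP than in saline striatum for microglia (8.70 to 9.01 against 8.46 to 8.56, with 4 of 7 markers called higher), astrocytes (9.87 to 10.12 against 9.51 to 9.67, 3 of 6) and oligodendrocytes (11.47 to 11.53 against 11.16 to 11.25, 3 of 5). Markers of cortical glutamatergic neurons had list means of 4.35 to 5.93 in MPTP striatum and 5.70 to 6.41 in saline striatum, and those of choroid plexus 5.05 to 6.12 and 6.11 to 6.29. Of the 3 choroid plexus markers, Folr1 and Kl stayed below the filter and only Ttr was tested. Ttr read 7.01, 8.37 and 10.18 in MPTP striatum and 10.14, 10.61 and 10.20 in saline striatum. Of single markers, 1 of 4 for endothelium was called higher and Slc17a6, the one marker of midbrain excitatory neurons, lower. The striatal means of Slc17a6, 4.28 with MPTP and 5.03 with saline, were both below the filter value of 5.18. It was tested because of its levels in other regions. On log2 arrays no marker has a true 0. The part of these lists in the ribosomal protein values was not tested.

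In midbrain, which holds the dopamine neurons of the substantia nigra, Rpl22l1 rose and no other member passed the test in either direction. Rpl22l1 is a paralogue of the large subunit protein Rpl22, and in mice Rpl22 protein is known to hold down the Rpl22l1 message. It read 11.57, 11.51 and 11.79 in MPTP midbrain, against 11.41, 11.06 and 11.04 in saline midbrain. All 3 MPTP arrays were above all 3 saline arrays, with means of 11.62 ± 0.150 and 11.17 ± 0.210 (SD, n = 3 each). The difference was 0.45 ± 0.0946 (SE), a fold of 1.37 (adjusted p = 0.0129). Rpl22 itself had 10.98, 10.99 and 11.06 in MPTP midbrain and 11.04, 10.77 and 10.89 in saline midbrain, a difference of 0.11 (adjusted p = 0.5) between overlapping groups.

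That call rests on single arrays. Leaving out replicate 3 of MPTP midbrain gave an adjusted p of 0.146, and leaving out replicate 2 or 3 of saline midbrain 0.0638 and 0.0769. When the saline array with the narrowest interquartile range was dropped from every region, an alternative added after the data were seen, it was 0.0679. One member of 46 called higher is a share close to the 2.15% of all genes.

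Over the family, 40 of 46 differences were positive in midbrain and 6 negative, with a median of 0.09 (all tested genes 0.03). Of all 11741 tested genes, 6690 had a positive difference and 5051 a negative one. The subunits had like medians, 0.09 for the large and 0.10 for the small one. The groups were apart, with MPTP higher, for 4 of the 46 members, against 11.1% of all tested genes, so that this share was no larger than that of the array as a whole. A second quantile normalisation turned the median to −0.0017, with 22 positive and 24 negative members. Under that scaling Rpl41 (−0.18), Rpl11 (−0.14) and Rpl4 (−0.14) were called lower and Rpl22l1 higher (0.35); these 3 lower ones were named after their values were seen and read −0.06, −0.04 and −0.02 as deposited.

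Next to Rpl22l1 in order of p came Rps20, Rpl10a and Rps4x. Rps20, a protein of the head of the small subunit, read 11.53, 11.61 and 11.78 in MPTP midbrain, against 11.48, 11.20 and 11.39 in saline midbrain. The 3 MPTP arrays were all above the saline ones, by 0.28 on average (adjusted p = 0.0751). Rpl10a had 11.85, 11.68 and 11.90 in MPTP midbrain and 11.68, 11.42 and 11.62 in saline midbrain, a difference of 0.24 (adjusted p = 0.0948) in which the lowest MPTP array equalled the highest saline array to 2 decimals. Rps4x, the X-linked form of small subunit protein S4, had 12.09, 12.03 and 12.22 in MPTP midbrain and 12.04, 11.76 and 11.87 in saline midbrain. Its groups overlapped at one array, and the difference was 0.22 (adjusted p = 0.0997).

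Replicate 1 of saline midbrain read higher than the other saline midbrain arrays for many members. The family's centred median was 0.12 on it, against −0.09 and −0.02 on replicates 2 and 3 of that group. Over all tested genes the centred medians of replicates 1 to 3 were 0.08, −0.10 and 0.06, so the spread was not confined to the family. Without replicate 1 of saline midbrain the median midbrain difference of the family was 0.15, and 6 members were called. Without replicate 2 of that group the median was 0.05 and none was called. List means of markers in midbrain were 8.18 to 8.34 with MPTP and 7.86 to 8.14 with saline for microglia (1 of 7 called higher), 10.38 to 10.42 and 10.10 to 10.32 for astrocytes (2 of 6), and 8.33 to 8.55 and 8.59 to 9.04 for dopamine neurons (none of 5 called). Their part in the ribosomal protein values was not tested.

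In frontal cortex, where few genes of any kind were called, limma called no member and none had an unadjusted p under 0.05. Of all 11741 tested genes, 720 had such a p. Of the 46 differences, 34 were positive and 12 negative, and their median of 0.02 was below the 0.04 of all tested genes. Over all 11741 tested genes, 7528 differences were positive and 4213 negative. No member had every MPTP array above every saline array, whereas 10.2% of all tested genes did. Rpl4, a large subunit protein that lines the exit tunnel, was the reverse, with 12.49, 12.56 and 12.54 in MPTP cortex and 12.57, 12.57 and 12.67 in saline cortex (difference −0.07, adjusted p = 0.914). The median was −0.02 without replicate 3 of MPTP cortex and 0.06 without replicate 1 of it. The smallest p values besides that of Rpl4 were those of Rpl10a (0.13, adjusted p = 0.863), Rpl12 (0.24, adjusted p = 0.867) and Rpl7a (0.08, adjusted p = 0.899).

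**Figure D2:**
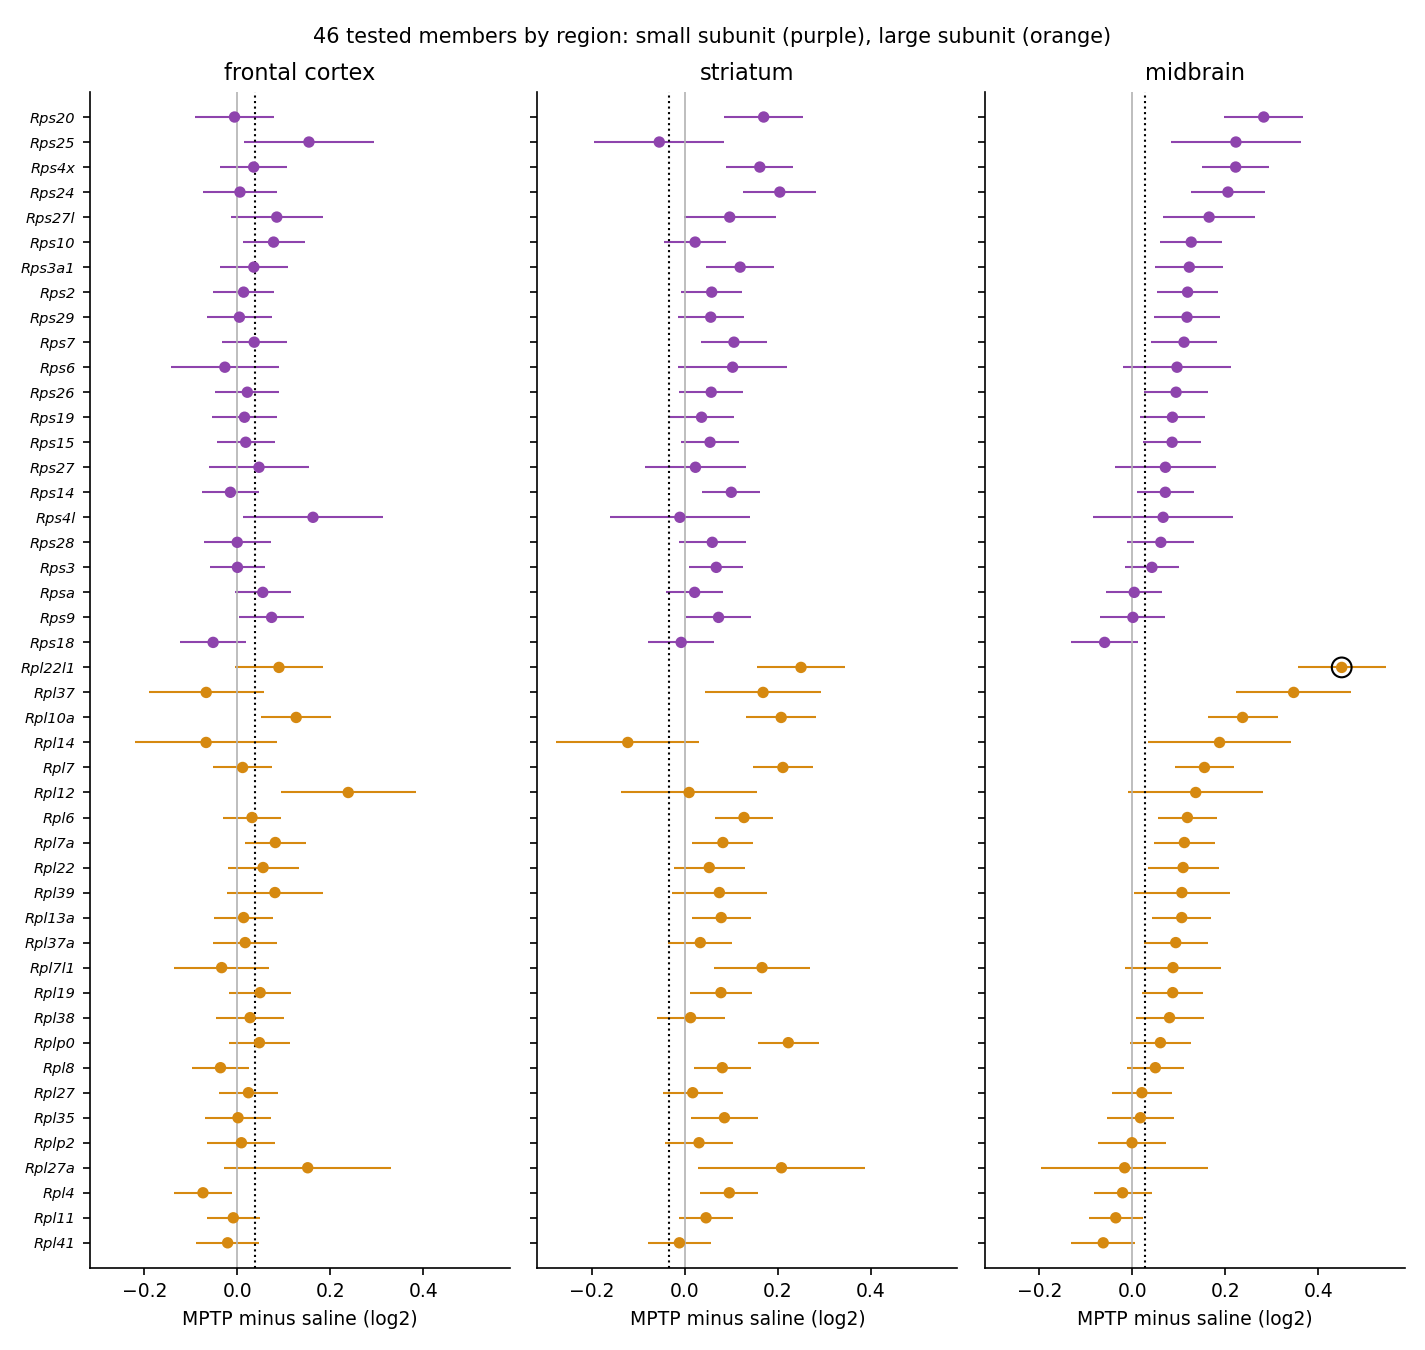
MPTP minus saline differences (log2) of the ribosomal protein genes in striatum, midbrain and frontal cortex, one point per gene, with bars of 1 SE, small subunit genes in purple above large subunit genes in orange. The dotted line is the median of all tested genes and the ring marks a called gene, which is Rpl22l1 in midbrain, at 0.45.

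Averaged over the 3 regions, 4 members rose and none fell with MPTP: Rpl22l1, Rpl10a, Rpl7 and Rps4x. As shares of 46 these are close to the 6.61% and 2.43% of all genes called higher and lower. The split depends on the scaling: a second quantile normalisation called 3 members higher (Rpl22l1, Rpl10a and Rps4x) and 4 lower (Rpl41, Rps18, Rpl4 and Rpl11, named after their values were seen). Of the 46 differences, 43 were positive, with a median of 0.06 (all tested genes 0.01). Over all 11741 tested genes, 6327 differences were positive. The median of the members fell to 0.0067, with 27 positive and 19 negative members, after a second quantile normalisation. Rpl22l1 rose by 0.26 ± 0.055 (SE), a fold of 1.20 (adjusted p = 0.0040). Rpl10a rose by 0.19 (adjusted p = 0.0081), Rpl7 by 0.13 (adjusted p = 0.0347) and Rps4x by 0.14 (adjusted p = 0.0370). In the same comparison 4 of 7 microglia markers and 3 of 6 of astrocytes were called higher. So were 2 of 4 of endothelium and 1 of 2 of oligodendrocyte precursors. Ttr, the only tested one of 3 choroid plexus markers, was called lower. The part of these markers was not tested.

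How many members were called depended on single arrays. It was 2 without any one of MPTP cortex replicate 2, MPTP midbrain replicate 3, MPTP striatum replicate 1 or 3, or saline striatum replicate 1, 2 or 3; it was 7 without MPTP cortex replicate 1 or MPTP striatum replicate 2, and 10 without saline midbrain replicate 1. These 4 genes were not alike in this. Rpl22l1 and Rpl10a stayed called in all 30 settings tried, the reported one included, with adjusted p of 0.000225 to 0.0402 and 0.00219 to 0.0478. Rpl7 was called in 19 of 30 and Rps4x in 16 of 30. The other 2 probe sets of Rpl7 gave differences of 0.13 each. The other probe set of Rps4x, with a mean of 5.16 near the background, gave −0.04 in the mean over regions and −0.41 in midbrain.

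The difference in response between regions was tested for each gene and called no member. Over all genes, 0.0596% were called between striatum and cortex, 0% between midbrain and cortex, and 0.0681% between midbrain and striatum. The smallest p between striatum and cortex were those of Rpl7 (response in striatum minus response in cortex 0.20, adjusted p = 0.618) and Rpl4 (0.17, adjusted p = 0.663). Between midbrain and cortex they were those of Rpl22l1 (0.36, adjusted p = 0.797) and Rps20 (0.29, adjusted p = 0.916), and between midbrain and striatum those of Rplp0 (−0.16, adjusted p = 0.835) and Rpl22l1 (0.20, adjusted p = 0.851). The rise of Rpl22l1 is therefore called in midbrain and not in the other regions, but a difference between regions was not shown.

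**Figure D3:**
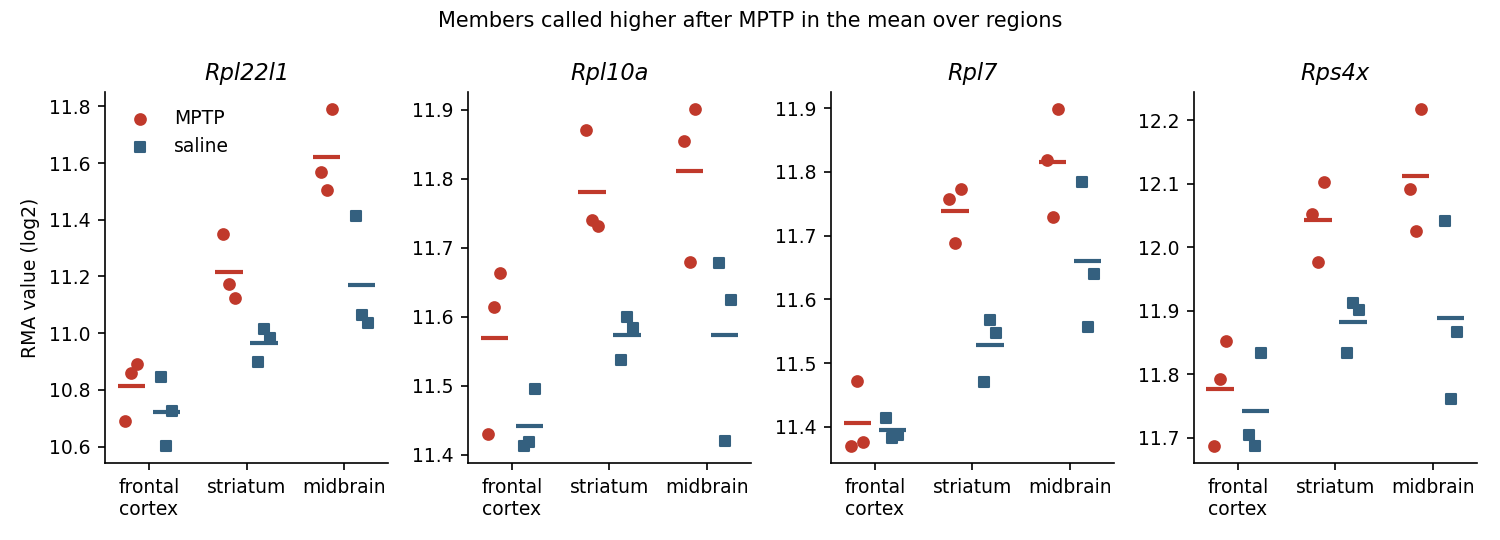
Log2 values of the 4 members called in the mean over regions, Rpl22l1, Rpl10a, Rpl7 and Rps4x, on each array, MPTP left of saline in each region, with lines at the group means and an axis of its own for each gene. The means of Rpl22l1 are farthest apart in midbrain (11.51 to 11.79 with MPTP, 11.04 to 11.41 with saline), and in frontal cortex the points of both treatments overlap for all 4 genes.

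The probe sets behind the values differ in how specific they are. Of the 85 member probe sets at or above the filter value, the 38 with an x suffix, which the array's maker designed with probes that may match other sequences, had a median difference of 0.13 in striatum, the 30 with an a or s suffix 0.08 and the 17 without one 0.02. In midbrain these medians were 0.12, 0.10 and 0.08, and in frontal cortex their order was the opposite, −0.00049, 0.03 and 0.05. For genes with more than 1 probe set, the sign of the other probe sets at or above the filter matched that of the chosen one in 33 of 40 cases in striatum, 38 of 40 in midbrain and 23 of 40 in cortex. The promoter groups differed little. With a pyrimidine tract within 30 bases of the start on either side, 23 tested genes had a median difference of 0.08 in striatum and 0.10 in midbrain. The 17 without one had 0.06 and 0.09.

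Within groups, members varied together. After removal of the group means, the median Pearson correlation of 1035 pairs of members over the 18 arrays was 0.605, against 0.226 for pairs of all tested genes. Rpl13a (0.944) and Rpl37a (0.932) followed the mean of the other members most closely, and Rpl39 (−0.080), Rpl27a (0.072) and Rpl37 (0.148) least. These correlations describe the arrays, which share hybridisation and normalisation, and have no test.

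Of other genes of translation, 2 of 34 tested initiation factors rose in striatum (1.29% of all genes): Eif4g2, which supports initiation without the usual cap complex, by 0.46 (adjusted p = 0.0289), and Eif5, which triggers hydrolysis of the GTP held by the initiator complex, by 0.28 (adjusted p = 0.0224). In midbrain 3 rose (2.15% of all genes), Eif4g2 by 0.57 (adjusted p = 0.0095), the scanning factor Eif1a by 0.49 (adjusted p = 0.0373) and Eif4h, a helper of the helicase Eif4a, by 0.22 (adjusted p = 0.0466). In the mean over regions 4 rose and 1 fell, beside 6.61% and 2.43% of all genes. None of the 34 was called in frontal cortex.

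Of the 13 tested genes listed here as elongation and termination factors, a list that takes in Eef1e1 by its name, none was called within a region. In the mean over regions 2 of them rose, where 6.61% of all genes did: Eef1e1 by 0.17 (adjusted p = 0.0474) and Eef1b2, the exchange factor of elongation factor 1, by 0.15 (adjusted p = 0.0270). Of 23 tested genes of mTORC1 and translational control, only Rheb, the small GTPase that activates mTORC1, was called: it rose by 0.31 in midbrain (adjusted p = 0.0280; 2.15% of all genes were called higher) and by 0.17 in the mean over regions (adjusted p = 0.0184; 6.61%).

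Ribosome biogenesis genes had negative medians in striatum and midbrain. Of 49 tested, 41 had negative differences in striatum, with a median of −0.12. Of all 11741 tested genes, 6942 were negative there, with a median of −0.03. In striatum 1 of the 49 fell (0.809% of all genes): Bysl, which acts in maturation of the small subunit, at −0.30 (adjusted p = 0.0494). In midbrain 36 were negative, with a median of −0.08, where 5051 of all 11741 tested genes were negative, with a median of 0.03. Gnl2, a nucleolar GTPase of large subunit assembly, fell in midbrain, at −0.32 (adjusted p = 0.0431), beside 0.383% of all genes. The counts and medians of this list were not recomputed under other scalings. In the mean over regions 4 fell, beside 2.43% of all genes, and none rose, led by Nop14 (−0.25, adjusted p = 0.0256), Gnl2 (−0.24, adjusted p = 0.0041) and Utp3 (−0.17, adjusted p = 0.0358). The 76 mitochondrial ribosomal protein genes, which belong to the separate ribosome of that organelle, had no call within a region and medians of −0.06 in striatum, 0.04 in midbrain and 0.02 in cortex. The single measured ribosomal protein gene outside the symbol rule, Fau, differed by 0.01 in striatum.

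More members were called between regions of saline animals than between treatments. The cell type markers differed as well: in saline striatum against cortex 5 of 5 for oligodendrocytes were called higher and 4 of 4 for cortical glutamatergic neurons lower, likewise in saline midbrain against cortex, and 6 of 7 for microglia were lower in saline midbrain than in saline striatum. Oligodendrocyte list means were 11.66 to 11.76 in saline midbrain, 11.16 to 11.25 in saline striatum and 9.89 to 10.16 in saline cortex, and the part of the markers in the regional values was not tested. Between striatum and frontal cortex, 16 members were higher in striatum and 1 lower, where 20.5% of all genes were called higher and 23.5% lower. These were 11 of 22 small subunit genes and 5 of 24 large subunit genes. The median difference was 0.14, against −0.0027 over all tested genes. The 6 largest were those of Rps4l (0.51, adjusted p = 0.0081), Rps6 (0.45), Rps9 (0.42), Rps19 (0.39), Rpsa (0.36) and Rpl22 (0.35). Rps6, the protein whose phosphorylation by S6 kinase is the usual readout of mTORC1 activity, read 7.26, 7.40 and 7.40 in saline striatum and 7.16, 6.63 and 6.92 in saline cortex. Rpsa, also known as the laminin receptor precursor, read 11.82, 11.93 and 11.93 in saline striatum and 11.45, 11.56 and 11.59 in saline cortex. In both, every striatum array was the higher. Rps6 is among the 11 members with means below 9, and how well its probe set measures the message was not tested. Rpl7l1 was the one member lower in striatum (7.0, 7.13 and 7.24 against 7.52, 7.51 and 7.69, difference −0.45, adjusted p = 0.00087).

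Between midbrain and cortex of saline animals, 15 members were higher and 3 lower in midbrain, beside 27.8% and 23.6% of all genes, with a median of 0.11. The median was 0.06 without replicate 1 of saline midbrain, and 0.17, with 23 members called, without replicate 2 of it. Rps4l led by a wide margin, at 8.74, 8.72 and 8.74 in saline midbrain against 7.25, 7.24 and 7.21 in saline cortex. The arrays of each group were nearly equal, and the difference was 1.5 ± 0.151 (SE), a fold of 2.82 (adjusted p = 8.95e-09). Next came Rps6 (0.54), Rps27l (0.48), Rps9 (0.47), Rpl22l1 (0.45) and Rpsa (0.34). Rpl41 (−0.32), Rps2 (−0.23) and Rps14 (−0.17) were lower in midbrain.

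Between midbrain and striatum of saline animals, 6 members were higher and 7 lower in midbrain, beside 33.4% and 24.8% of all genes, and the median was 0.01. Its sign was not stable: it was −0.05 without replicate 1 of saline midbrain, 0.06 without replicate 2 of it and −0.01 without replicate 1 of saline striatum. The higher ones were Rps4l (0.99, a fold of 1.98), Rpl7l1 (0.61), Rps27l (0.37), Rpl8 (0.25), Rpl6 (0.19) and Rpl11 (0.15). The lower ones included Rps2 (−0.40), Rpl22 (−0.30), Rpl41 (−0.26), Rps19 (−0.25), Rps15 (−0.23) and Rps29 (−0.22). Rps2, which lies at the entry of the messenger RNA channel, read 11.66, 11.41 and 11.55 in saline midbrain and 11.84, 11.97 and 11.99 in saline striatum, with no overlap.

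The same comparisons in the MPTP animals, other arrays than the saline ones, gave like signs. Called members were 23 higher and 1 lower between striatum and cortex (18.8% and 30.4% of all genes), 25 and 1 between midbrain and cortex (29.3% and 25.0%), and 7 and 7 between midbrain and striatum (37.7% and 21.5%). Of the differences called in saline animals, 14 of 17, 16 of 18 and 11 of 13 were called with the same sign in MPTP animals (82.4%, 88.9% and 84.6%), which is 58.3%, 61.5% and 78.6% of the members called there, and none with the opposite sign. Over all tested genes these shares were 84.1%, 87.4% and 86.7% of the saline calls and 75.3%, 82.6% and 85.4% of the MPTP calls. Rps4l was higher in midbrain by 1.40 over cortex and by 1.07 over striatum in MPTP animals.

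**Figure D4:**
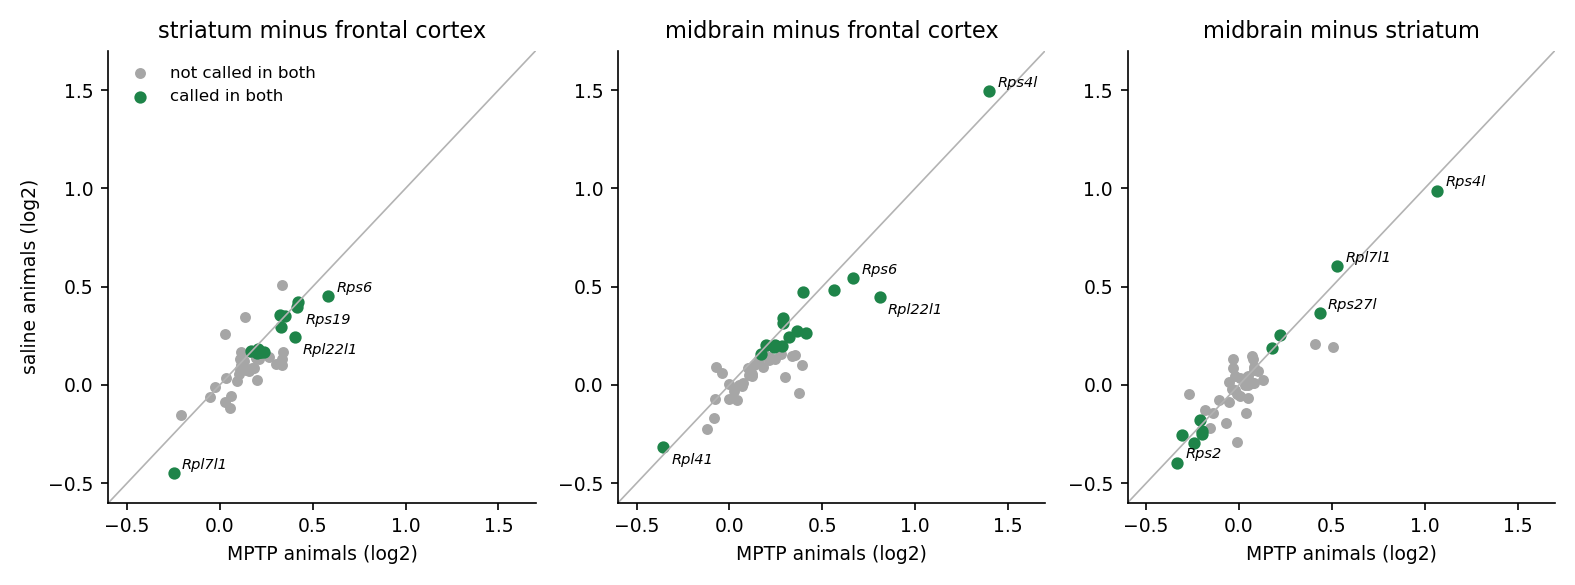
Differences between regions (log2) of the ribosomal protein genes in MPTP animals (x axis) and saline animals (y axis), one panel per pair of regions. Green points are called in both sets of animals and the line marks equal differences, with Rps4l the farthest from 0 in both panels that include midbrain.

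Of the paralogues with their parents, Rps4l was the most regional, and Rps4x, its parent, was not called between any pair of saline regions (midbrain minus cortex 0.15, adjusted p = 0.0911). In MPTP animals Rps4x was called higher in midbrain than in cortex (12.09, 12.03 and 12.22 against 11.69, 11.79 and 11.85). The mean over its probe sets turned that sign. Rps27l, known in human cells as a target of p53, read 8.17, 7.99 and 8.01 in saline midbrain and 7.61, 7.47 and 7.64 in saline cortex, without overlap, while Rps27 differed by 0.13 (adjusted p = 0.326). Rps27 read 6.30 to 6.80 on all arrays and is among the 11 members with means below 9. How well its probe set measures the message was not tested. Rpl7l1 was higher in saline midbrain than in saline striatum by 0.61 (adjusted p = 1.96e-05) and Rpl7 by 0.13 (adjusted p = 0.0806). Against saline cortex the order was the reverse. Rpl7 was called higher in saline midbrain (0.27), and Rpl7l1 was not called (means of 7.73 in midbrain and 7.58 in cortex). Rpl22l1 and Rpl22 had opposite signs between saline midbrain and saline striatum, 0.21 (adjusted p = 0.0658) and −0.30 (adjusted p = 0.00174), but the sign of Rpl22 depended on the probe set: 1 other (mean 9.63) gave −0.23 and another (mean 8.54) 0.19. The difference between paralogue and parent was not tested. With MPTP, none of Rps4l (−0.01 in striatum and 0.07 in midbrain), Rps27l (0.10 and 0.17) and Rpl7l1 (0.17 and 0.09) was called. Nor were Rpsa (0.02 and 0.0043), Rps6 (0.10 and 0.10) or the stalk protein Rplp2 (0.03 and −0.00050).

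**Figure D5:**
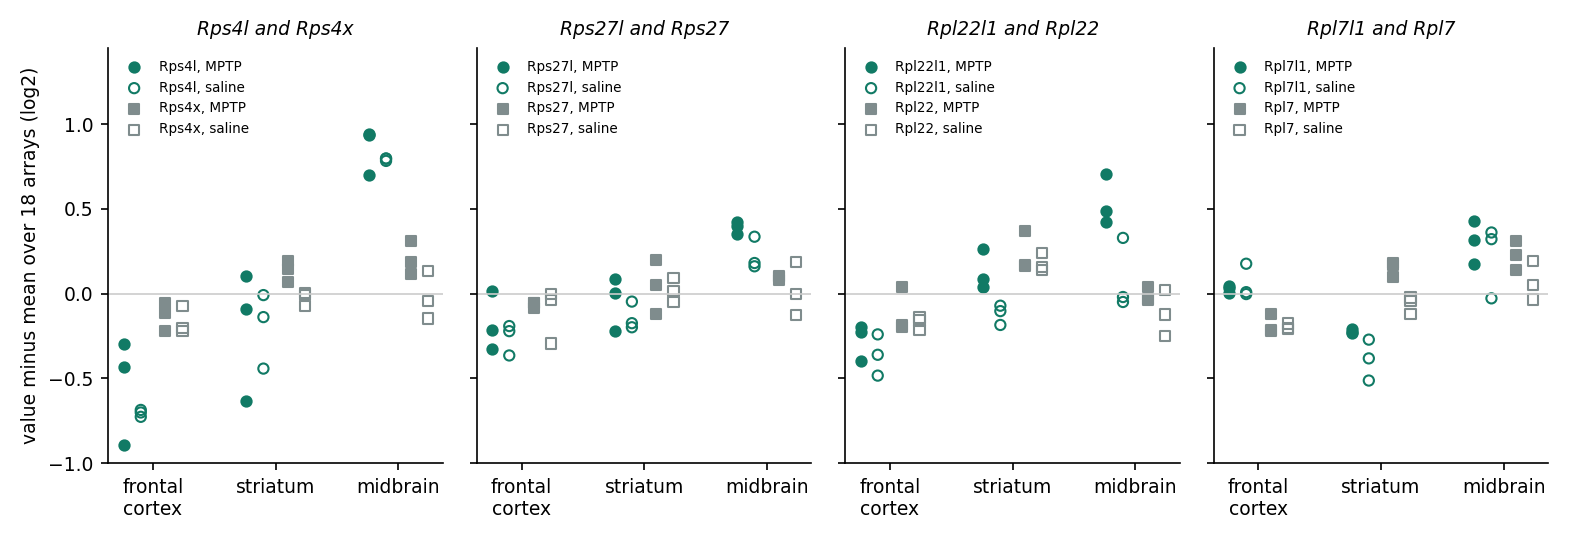
Log2 values, minus each gene's mean over the 18 arrays, of the paralogues Rps4l, Rps27l, Rpl22l1 and Rpl7l1 and of their parents Rps4x, Rps27, Rpl22 and Rpl7 on each array, by region with MPTP left of saline. Filled symbols are MPTP and open symbols saline arrays, circles paralogues and squares parents. Rps4l spreads widest, being highest in midbrain and lowest in cortex. Rps4x, at 11.69 to 12.22 on all arrays, spreads less, with its MPTP midbrain arrays above its MPTP cortex arrays.

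Some regional values depended on the probe set. The Rpl22 probe set with a mean of 8.54 gave −0.36 between saline striatum and cortex, where the one used gave 0.35. A second one of Rps3, with a mean of 6.90, gave −0.56 where the one used gave 0.17. The probe sets of Rps27l and of Rpl7l1 had the same sign, but those of Rpl7l1 differed in size. Between saline striatum and cortex the Rpl7l1 probe set used gave −0.45. Its other probe sets gave −0.08 (mean 7.46) and −0.33 (mean 5.59). Between saline midbrain and striatum these values were 0.61, 0.31 and 0.45. The number of members called between saline striatum and cortex, 17, was 9 after centring each array on its median, 7 without replicate 2 of saline striatum, 10 without replicate 3 of it, 8 without replicate 2 of saline cortex and 11 without replicate 1 of it.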

How the data were processed

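Affymetrix arrays of 45101 probe sets measured total RNA of 18 samples, 3 per group, extracted with a lipid tissue kit per the labels' protocols. The authors deposited log2 values made with RMA, per the submitters' processing notes; its version is not given in the sources used here. The method corrects background, sets all arrays to one distribution and summarises probes, so that differences are relative to the whole array. Depth does not apply to arrays, and 3 arrays per group limit the precision.

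Probe sets were named from the array's annotation, updated through Entrez gene identifiers with the GRCm38.p6 table (34754 of 34958 single-gene probe sets, 204 kept their name); 932 list several genes and 9211 are unlisted. Genes whose mean stayed under the median probe set in every region were left untested. limma 3.58.1 (R 4.3.3) fitted 1 mean per group on the 18 arrays, with eBayes and an intensity trend, two-sided, adjusted by Benjamini-Hochberg over 11741 genes within each comparison. The mean over regions had arrays of 1 treatment and replicate number as a random block (correlation 0.00558); the labels do not say that such arrays come from the same animal. Each p-value sets a difference against the gene's spread between arrays within groups, pooled over the 6 groups and moderated by eBayes.

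The fit was tested on simulated data with known changes. Genes, lists and tests were chosen with earlier results of these data known. Named are called members up to the 6 largest each way, the 4 of smallest p where fewer than 3 were called, the 2 of smallest p for differences between regional responses, the paralogues with their parents, and Rplp0, Rplp2, Rpsa and Rps6; of the other lists up to 3 called genes. Alternatives were another filter or none, centring, a second quantile normalisation, other probe sets, other variance models, blocks, the compared arrays alone and each array left out. After the data were seen, each array's interquartile range as a covariate, the leaving out of the saline array of lowest range in each region, and the regional comparisons in MPTP animals were added. Results came from Python 3.11.15 with pandas 2.3.3 and matplotlib 3.10.9 besides R.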

Additional observations from a re-analysis of the deposited data

How the results depend on the processing

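The replicate number as a fixed block, and the treatment and number as a random block for the comparisons of regions, changed no count of called members: with the replicate block the medians of the members were 0.0735 in striatum, 0.0940 in midbrain and 0.0198 in cortex with 0, 1 and 0 called, and without a replicate block the mean over regions again had 4 called. No label ties the same number in several regions to 1 animal. In their deviations from group means, same-numbered arrays of different regions within a treatment correlated at −0.233 to 0.342, over 0.1 in 11 of 18 pairs, and those of MPTP with saline at −0.194 to 0.294, over 0.1 in 3 of 9. With a second quantile normalisation the midbrain median was −0.0017, the midbrain minus cortex response −0.019, and called members 2 in striatum, 4 in midbrain, 7 in the mean over regions (3 higher, 4 lower), 27 between saline striatum and cortex, and 20 between saline midbrain and striatum. In the mean over regions the 4 lower ones, Rpl41, Rps18, Rpl4 and Rpl11, were named after their values were seen. Over all genes it called 4 higher and 18 lower responses in midbrain than in striatum (0 and 8 as deposited). The interquartile range as a covariate gave 3 called in striatum and 3 in midbrain. Leaving out the saline arrays of lowest range gave 0 in midbrain, 2 in the mean over regions and 9 between saline striatum and cortex. Without an intensity trend there were 2 in the mean over regions and 9 between saline striatum and cortex, where centring gave 9, no filter 11 and the compared arrays alone 26. With 1 array left out, called members were 0 to 1 in striatum, 0 to 6 in midbrain, 2 to 10 in the mean over regions and 7 to 13 between saline striatum and cortex, and medians ran from 0.0221 to 0.0978, 0.0491 to 0.150, and 0.0450 to 0.0833 for the first 3, and −0.0201 to 0.0584 in frontal cortex. Between saline midbrain and cortex 15 to 23 were called with medians of 0.0584 to 0.171, and between saline midbrain and striatum 10 to 15 with medians of −0.0478 to 0.0569. For Rps4x the mean over its probe sets turned midbrain minus cortex to −0.035 and midbrain minus striatum to −0.27 in MPTP animals. The causes were not tested. Among all other values, of single genes and of the medians over all genes or in MPTP animals, 3243 kept direction and side of the threshold or moved by less than the replicate spread, 131 lost and 49 gained a call, 20 moved further and 2, those of Rps4x, reversed.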
